A study of Mus musculus with 4 samples.

Results

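The homeobox genes *Hmx2*, *Hmx3*, *Nkx2-1*, *Nkx6-2*, *Dbx1*, *Gsx1* and *Gsx2*, which mark the progenitors and newborn neurons of the preoptic area (POA) and its neighbours, were followed in sorted *Hmx3*-lineage cells of the embryonic mouse brain. The 7 genes were chosen by symbol and matched by Ensembl identifier, and they are 7 of the 55573 genes counted in each library. The cells were tdTomato-positive and were FACS-enriched at E16, counting the day of insemination as E1, from the basal telencephalon by the sample labels and from the POA by the paper. All embryos carried *Hmx3-Cre* and the *tdTomato* reporter. Controls (WT) were wild type for *Dnmt1*, the maintenance DNA methyltransferase. The KO embryos carried *Dnmt1 loxP2* alleles, from which Cre removes exons 4 and 5 and leaves a null allele in cells in which the *Hmx3* driver is or was active. Both the deletion and the sorted label thus rest on the driver of 1 of the 7 genes. Cells were pooled from 12 WT and 6 KO embryos, and 2 libraries were sequenced for each genotype. The paper calls them technical duplicates and the labels call them biological replicates, so SDs and p-values describe the spread between libraries only, which may be technical.

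Homeobox proteins bind DNA through a homeodomain and switch on or hold back the genes of a region or cell type. Sonic hedgehog (SHH) from the ventral midline turns on *Nkx2-1* and the *Nkx6* genes in ventral progenitors, the *Gsx* genes pattern the subpallial ventricular zone, and *Dbx1* marks a narrow progenitor domain. In the POA these progenitors give rise to GABAergic neurons, and *Hmx3* appears in a lineage of postmitotic POA cells that includes migrating cortical interneurons.

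DNMT1 keeps CG dinucleotides (CpG sites) methylated through cell division, and the DNA around a gene's start is often rich in such sites. RefSeq windows (GRCm38.p6) from 250 bases before to 50 bases after a start were found for all 7 genes, with 2 windows for *Hmx2*. The bases that lie before both the RefSeq and the GENCODE start are printed 5′ to 3′ for 3 genes, with each CpG site in capitals. *Nkx6-2* is shown because it was the member that rose in KO cells, *Hmx3* because it marks the lineage, and *Nkx2-1* because it had the fewest CpG sites of the members with 1 window.
*Nkx6-2*, chr7:139582798-139583047, minus strand: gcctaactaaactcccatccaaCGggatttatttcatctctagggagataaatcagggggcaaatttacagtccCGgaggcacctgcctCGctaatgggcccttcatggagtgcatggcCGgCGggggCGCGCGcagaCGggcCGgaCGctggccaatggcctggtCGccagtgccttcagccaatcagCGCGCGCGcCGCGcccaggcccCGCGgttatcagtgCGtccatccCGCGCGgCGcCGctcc
*Hmx3*, chr7:131542713-131542866, plus strand: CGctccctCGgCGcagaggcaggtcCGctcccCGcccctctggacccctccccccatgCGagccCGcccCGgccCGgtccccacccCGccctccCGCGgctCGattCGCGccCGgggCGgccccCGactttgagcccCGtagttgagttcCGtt
*Nkx2-1*, chr12:56536909-56537158, minus strand: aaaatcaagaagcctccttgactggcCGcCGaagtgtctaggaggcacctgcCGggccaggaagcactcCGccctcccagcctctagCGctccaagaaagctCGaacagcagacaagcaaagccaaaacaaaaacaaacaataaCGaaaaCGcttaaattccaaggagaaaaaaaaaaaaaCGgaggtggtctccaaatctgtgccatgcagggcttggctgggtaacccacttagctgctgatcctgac

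The 250 bases of *Nkx6-2* hold 26 CpG sites, the 154 bases of *Hmx3* hold 20 and the 250 bases of *Nkx2-1* hold 9. Over whole windows of 300 bases, the median of all 32851 windows was 7 CpG sites, with quartiles of 3 and 20. *Hmx3* had 39 CpG sites, a number reached by 4.45% of all windows, and *Nkx6-2* had 32, reached by 9.52%. *Gsx1* had 19, *Gsx2* 17, *Dbx1* 15 and *Nkx2-1* 12, and the windows of *Hmx2* had 2 and 22. Thus 7 of the 8 member windows lay above the median of all windows. The TATA letters TATAAA, searched on both strands, were present in the first *Hmx2* window and in those of *Dbx1* and *Gsx2*, against 13.6% of all windows. CCAAT, also searched on both strands, was present 2 times in the *Nkx6-2* window, 2 times in that of *Dbx1* and once in the second *Hmx2* window, against 37.4% of all windows. The homeodomain core TAATTA was in none of the 8 windows and in 5.29% of all windows, and none of the 3 motifs holds another. Methylation was not measured in the files used here, and these letters describe the sequence only.

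The libraries held 8075102 to 9995968 counts, and the members took 1928 to 2917 of them. WT replicate 1 stood apart by its mitochondrial rRNA, which took 8.66% of the counts against 1.51% to 2.32% in the other libraries, and the WT libraries differed from each other more than the KO libraries did (chi-square per degree of freedom 65.4 against 4.57). *Dnmt1* itself was counted 3103 and 4557 times in WT and 2383 and 2552 times in KO (log2 fold change -0.56, SE 0.14, edgeR adjusted p = 0.0511 over all tested genes), and it passed the test in 8 of 10 other settings and with 2 of the 4 libraries left out in turn (adjusted p from 4.69e-07 to 0.530 over the 14). Reads from the undeleted exons still count for *Dnmt1*. Of 8 genes that define the labelled cells (*Hmx3*, *Gad1*, *Gad2*, *Slc32a1*, *Dlx1*, *Dlx2*, *Tubb3* and *Dcx*), all had counts in every library, none passed the test (1 without WT replicate 1 and 2 without WT replicate 2), and the fitted log2 fold change was below 0 for all 8 (median -0.31, against -0.03 over all genes tested). In the 10 other settings *Tubb3* and *Dcx* each passed as lower in KO in 4, *Slc32a1* in 2 and *Dlx2* in 1.

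The members spanned a wide range of levels, and their order was the same in both genotypes for all but *Nkx6-2*. Levels of different genes are compared here as CPM per kb, which is a gene's CPM (its counts scaled to a common library size, with TMM factors that correct for library composition) divided by the kilobases of its exons. *Hmx3* was the highest member, with 57.9 ± 5.57 CPM per kb in WT and 56.8 ± 10.6 CPM per kb in KO (SD, n = 2, as for all levels of a genotype). *Hmx2*, its neighbour on chromosome 7 and a close relative, came next with 42.8 ± 3.21 CPM per kb in WT and 33.4 ± 0.601 CPM per kb in KO. *Nkx2-1* followed with 17.3 ± 5.19 CPM per kb in WT and 13.3 ± 1.53 CPM per kb in KO.

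The *Gsx* genes lay below these. *Gsx1* had 4.33 ± 0.677 CPM per kb in WT and 3.16 ± 0.103 CPM per kb in KO. *Gsx2* had 2.18 ± 0.502 CPM per kb in WT and 1.97 ± 0.768 CPM per kb in KO. *Nkx6-2* had 0.110 ± 0.0630 CPM per kb in WT and 2.74 ± 0.445 CPM per kb in KO. In KO the libraries of *Nkx6-2* and *Gsx2* overlapped in level, so these neighbours in the order did not differ beyond their spread, as was the case for *Nkx6-2* and *Dbx1* near the detection limit in WT. The libraries of all other neighbours in the order did not overlap.

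**Figure D1:**
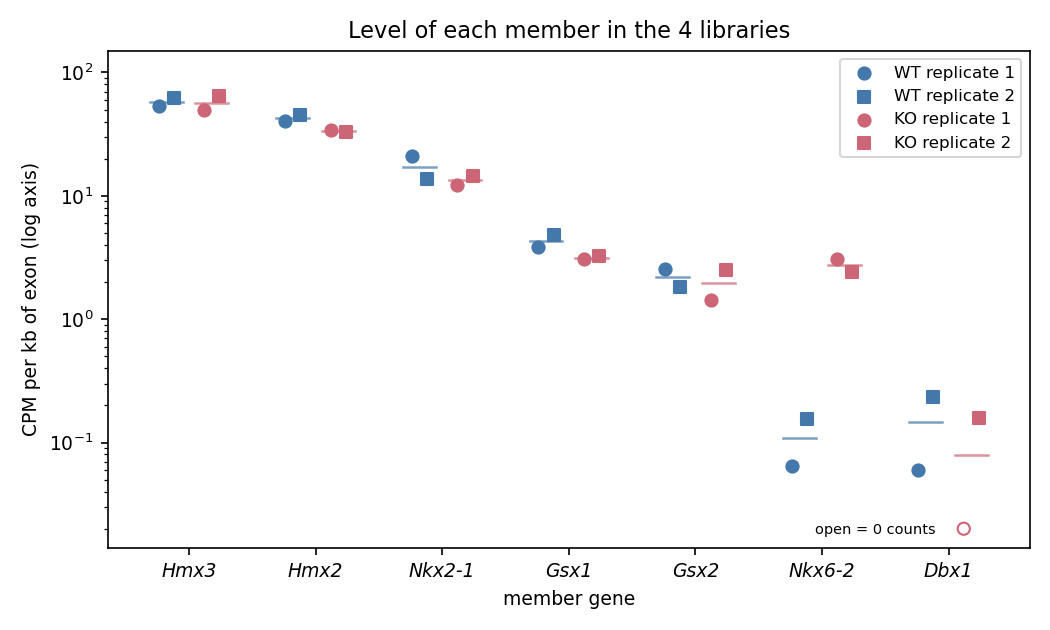
Level of each member, in CPM per kb of exon on a log axis, in each of the 4 libraries (blue WT, red KO; circles replicate 1, squares replicate 2; bars are the mean of a genotype, and the open circle at the foot is a library with 0 counts). *Nkx6-2* is the gene whose KO libraries stand far from its WT libraries.

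Among 197 genes named as homeobox genes by symbol, *Hmx3* ranked 2 in level in both genotypes and *Hmx2* ranked 4. *Nkx2-1* ranked 12 in WT and 16 in KO. *Gsx1* moved from 38 to 42 and *Gsx2* from 44 to 54. In every library *Hmx3* was above *Hmx2* per length, by a ratio of 1.33 and 1.37 in the WT libraries and 1.46 and 1.95 in the KO libraries. The ratio of *Gsx1* to *Gsx2* per length was 1.52 and 2.64 in WT and 2.16 and 1.29 in KO, so the genotypes overlapped.

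Of the 7 members, 6 passed the filter on low counts and 1 of them, *Nkx6-2*, was higher in KO, while none was lower. A member was called changed at an edgeR quasi-likelihood adjusted p under 0.05. By this rule 7.33% of the 16832 tested genes were higher in KO and 0.57% were lower, and 3813 genes had an unadjusted p under 0.05, among them *Nkx6-2* and *Hmx2*. Both KO libraries lay above both WT libraries for 1 member and below them for 2, *Hmx2* and *Gsx1*. The same held for 28.3% and 25.2% of all tested genes, so that counts of 1 and 2 among 6 members are no result about the members. The median log2 fold change of the 6 tested members was -0.24.

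*Nkx6-2* encodes a homeodomain repressor that patterns ventral progenitors and is also known from maturing, myelin-forming oligodendrocytes. The gene (ENSMUSG00000041309) spans 139579376 to 139582797 of chromosome 7 (GRCm38, minus strand). It was counted 1 and 3 times in WT and 49 and 42 times in KO. The WT libraries were thus at the floor of detection, which is 3 counts or 0.294 to 0.372 CPM in a library, and the KO libraries were above it with 5.83 and 4.63 CPM.

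The log2 fold change of *Nkx6-2* was 4.50 (SE 0.63, 95% interval 3.05 to 5.95, edgeR adjusted p = 0.00321). Since the WT side holds only 4 counts, the size is also given from the pooled counts, which were 23.8-fold higher in KO with an exact 95% interval of 8.97 to 89.0 for counting error. *Nkx6-2* passed the filter on low counts through its KO libraries only. The rise passed the test in 9 of 9 other settings in which the gene was tested, and these reuse the same counts, so they are not independent. With at least 10 counts in every library the gene was not tested. Its log2 fold change was 4.08 to 5.24 with a library left out. An overlap with *Inpp5a* on the opposite strand covers 246 bases, or 12.9% of the exonic bases of *Nkx6-2*, and the strand setting of the counting was not given in the sources used here.

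**Figure D2:**
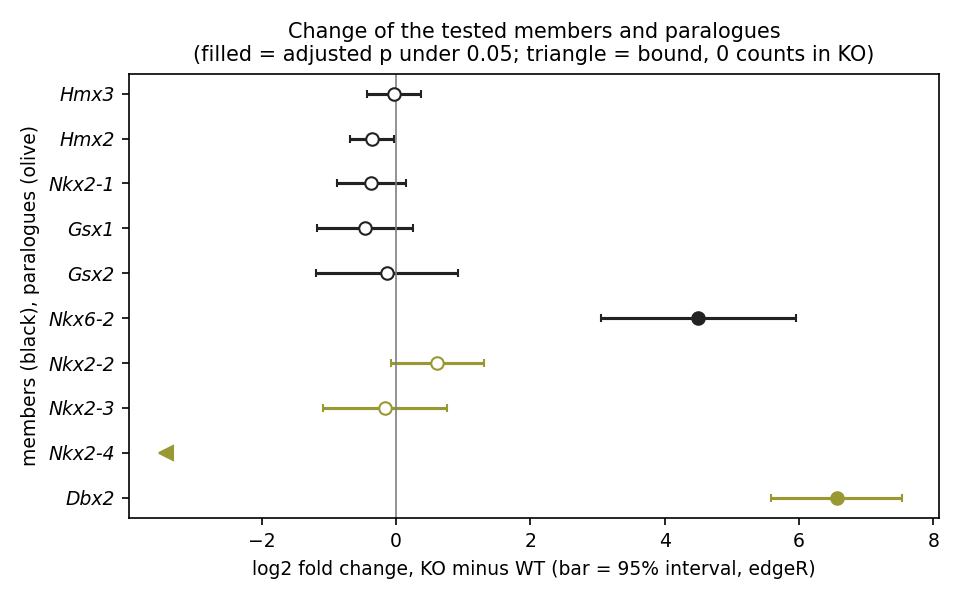
Fitted log2 fold change, KO minus WT, of the 6 tested members (black) and the 4 tested paralogues (olive), with 95% intervals from edgeR. Filled points passed the adjusted p of 0.05, and the triangle is the bound for *Nkx2-4*, which had 0 counts in both KO libraries. *Nkx6-2* and *Dbx2* lie far to the right, and the other 5 members lie between -0.46 and -0.03.

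*Hmx3* and *Hmx2* are sister genes whose products act together in the inner ear and the hypothalamus. *Hmx3* (ENSMUSG00000040148, chromosome 7, 131542867 to 131544925, plus strand) was counted 633 and 919 times in WT and 604 and 851 times in KO, or 78.6 and 90.0 CPM against 71.8 and 93.7 CPM. The KO libraries spanned the WT libraries on either side. Its log2 fold change was -0.03 (SE 0.18, edgeR adjusted p = 0.949), and its 95% interval of -0.43 to 0.38 holds changes of either sign. Its log2 fold change without WT replicate 1 was -0.13.

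*Hmx2* (ENSMUSG00000050100, chromosome 7, 131548773 to 131558014, plus strand) was counted 1049 and 1478 times in WT and 916 and 964 times in KO, or 130 and 145 CPM against 109 and 106 CPM. Both KO libraries were below both WT libraries. The log2 fold change of *Hmx2* was -0.36 (SE 0.14, 95% interval -0.68 to -0.03, edgeR adjusted p = 0.189). Without WT replicate 1, the library with the high mitochondrial rRNA, it was -0.43 and passed the test (edgeR adjusted p = 0.0210). Over the 14 other settings its adjusted p ranged from 0.00167 to 0.818. Both *Hmx* genes lie within the span of *Fgfr2* on the opposite strand but share no exonic base with it.

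*Nkx2-1* encodes the factor that sets up the medial ganglionic eminence (MGE) and the POA against their dorsal neighbours. It (ENSMUSG00000001496, chromosome 12, 56531958 to 56536908, minus strand) was counted 479 and 394 times in WT and 293 and 372 times in KO, or 59.5 and 38.6 CPM against 34.8 and 41.0 CPM. WT replicate 1 was highest and the other 3 libraries lay close together. Its log2 fold change was -0.37 (SE 0.22, 95% interval -0.88 to 0.15, edgeR adjusted p = 0.374). Without WT replicate 1 it was -0.03 (adjusted p = 0.928), and without WT replicate 2 it was -0.65 and passed the test (adjusted p = 0.000840). The fold change of *Nkx2-1* thus depended on which WT library was used, and over all 14 other settings its adjusted p spanned the values 0.000840 to 0.928.

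*Gsx1* and *Gsx2* encode related factors that hold or advance subpallial progenitors on their way to GABAergic neurons. *Gsx1* (ENSMUSG00000053129, chromosome 5, 147188696 to 147190947, plus strand) was counted 55 and 87 times in WT and 46 and 52 times in KO, or 6.83 and 8.52 CPM against 5.47 and 5.73 CPM. Both KO libraries lay below the WT libraries. The log2 fold change of *Gsx1* was -0.46 (SE 0.31, 95% interval -1.17 to 0.25, edgeR adjusted p = 0.422), and it was -0.61 without WT replicate 1.

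*Gsx2* (ENSMUSG00000035946, chromosome 5, 75075601 to 75077893, plus strand) was counted 34 and 31 times in WT and 20 and 38 times in KO, or 4.22 and 3.04 CPM against 2.38 and 4.19 CPM. The KO libraries held both the lowest value and nearly the highest. Its log2 fold change was -0.13 (SE 0.46, 95% interval -1.19 to 0.93, edgeR adjusted p = 0.900). Without WT replicate 1 the fold change of *Gsx2* changed sign to 0.11, and without KO replicate 1 it was 0.21.

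*Dbx1*, which marks a progenitor domain that lends cells to the POA and the ventral pallium, was not tested. It (ENSMUSG00000030507, chromosome 7, 49631499 to 49636849, minus strand) was counted 1 and 5 times in WT and 0 and 3 times in KO. All libraries but WT replicate 2 were at or below the floor of 3 counts, so no fold change is given.

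The closest relatives of the members outside the list were mostly low in counts. Of 9 paralogues, 4 passed the filter, 1 was higher and 1 was lower in KO. *Dbx2*, the relative of *Dbx1*, was counted 1 and 3 times in WT and 185 and 198 times in KO (log2 fold change 6.56, SE 0.42, edgeR adjusted p = 4.78e-05), with a pooled-count ratio of 100.0 (exact 95% interval 38.7 to 369). *Nkx2-4*, which is paired with *Nkx2-1* in the ventral hypothalamus, had 34 and 32 counts in WT, with 0 in both KO libraries. It was at least 10.7-fold lower in KO against a floor of 3 counts per library (edgeR adjusted p = 0.00515). *Dbx2* passed the filter on low counts through its KO libraries only, and *Nkx2-4* through its WT libraries only. With a library left out, the log2 fold change of *Dbx2* was 6.15 to 7.30, and that of *Nkx2-4* stayed below 0.

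*Nkx2-2*, a ventral progenitor and oligodendrocyte lineage factor, was counted 44 and 67 times in WT and 70 and 92 times in KO, and its log2 fold change of 0.61 did not pass the test (edgeR adjusted p = 0.270). *Nkx2-3*, the other tested paralogue, named after its values were seen, did not pass either (log2 fold change -0.16, edgeR adjusted p = 0.849). *Nkx6-1*, the sister of *Nkx6-2*, was counted 1 and 4 times in WT and 6 and 4 times in KO and was not tested. It was named after its values were seen, as the nearest relative of the member that rose. *Nkx6-3* and *Pdx1* had 0 counts in all libraries.

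Over the whole homeobox class, 79 of the 197 genes were tested and 13 were called (16.5%), 8 higher and 5 lower in KO. Those from outside the lists were picked with their values in view. The higher genes were *Prrx1*, *Zhx3*, *Hopx*, *Six5*, *Nkx6-2*, *Zfhx2*, *Dbx2* and *Emx2*, and the lower genes included *Nkx2-4*, *Bsx*, *Isl1* and *Six6*. The median log2 fold change of the tested homeobox genes was -0.11, and 26 of them lay within 0.25 of 0 on the log2 scale. *Hmx3* and *Gsx2* were in that middle, while *Nkx6-2* and *Dbx2* were among the few genes that were close to 0 in WT and measurable in KO.

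**Figure D3:**
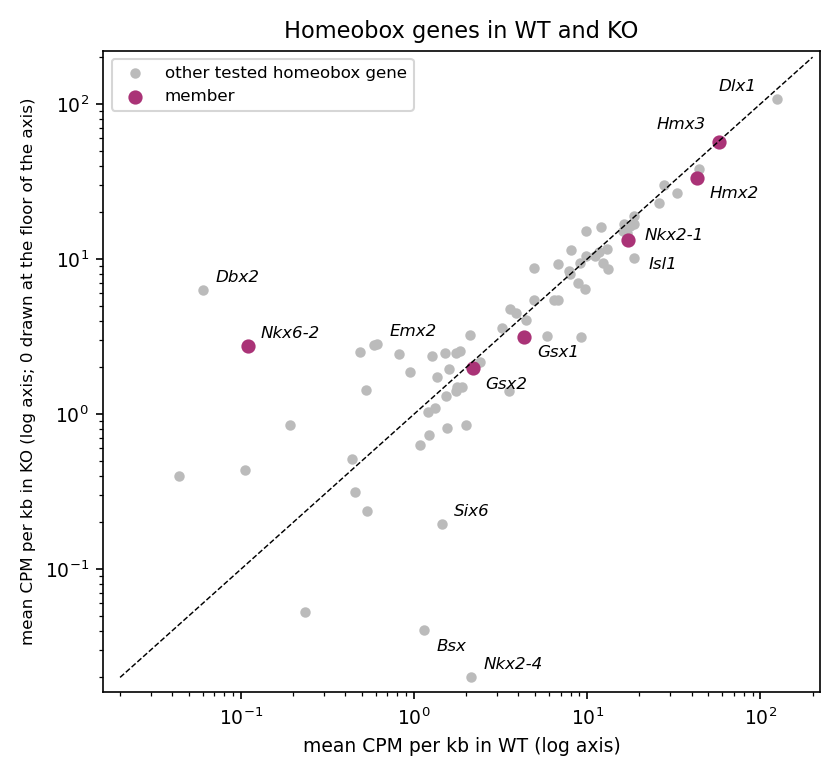
Mean level of the tested homeobox genes in WT (x axis) and KO (y axis), in CPM per kb on log axes, with the members in purple and the line of equal level dashed. *Hmx3*, *Hmx2*, *Nkx2-1*, *Gsx1* and *Gsx2* lie along the line, while *Nkx6-2* (0.110 in WT and 2.74 in KO) stands above it near *Dbx2* and *Emx2*.

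For each member with at least 10 counts in total, the homeobox genes with the most similar profile were found by the distance between centred log2(CPM + 1) values over the 4 libraries, among 99 candidates. *Hmx2* was closest to *Pknox1* (distance 0.0843) and *Gsx1* (0.120). *Hmx3* was closest to the interneuron factor *Lhx6* (0.122) and to *Pou2f2* (0.169). *Gsx1* was closest to *Lhx5* (0.110) and *Pknox1* (0.116), and *Gsx2* to *Otp* (0.209) and *Satb1* (0.254).

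*Nkx2-1* was closest to *Hdx* (0.224) and *Pou3f2* (0.224), genes that were also highest in WT replicate 1. *Nkx6-2* was closest to *Emx2* (0.675) and *Six5* (0.698), the largest distances of the set. *Emx2* was counted 16 and 17 times in WT and 75 and 73 times in KO, and *Six5* was counted 10 and 17 times in WT and 56 and 77 times in KO. Both share with *Nkx6-2* the low values in WT and the higher values in both KO libraries. All these neighbours were picked by their profile, so such likeness follows from the choice.

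Genes that act with or after *Nkx2-1* in the MGE and POA lineage, such as *Lhx6*, were below 0 in fold change for 9 of 14 genes. All 14 were tested, none was higher and 1 was lower in KO, with a median log2 fold change of -0.17. Calls numbered 3 without WT replicate 1 and 3 without WT replicate 2. The gene that fell was *Zic1*, a POA and septal progenitor factor, counted 1636 and 1738 times in WT and 1067 and 1080 times in KO (log2 fold change -0.60, SE 0.15, edgeR adjusted p = 0.0494). Its call was lost without KO replicate 1 (adjusted p = 0.320) or KO replicate 2 (0.537), with library size only (0.104) and with at least 10 counts in every library (0.0684), and over the 14 other settings its adjusted p ranged from 5.57e-06 to 0.537. *Lhx5*, the highest of the list with *Zic1*, had a log2 fold change of -0.30 (adjusted p = 0.315). *Lhx6* was counted 365 and 504 times in WT and 371 and 509 times in KO, which gave a log2 fold change of 0.08 (adjusted p = 0.825).

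The list of 14 GABAergic lineage genes that act with or after the *Gsx* genes gave a like picture. It includes *Gad1* and *Gad2*, which are not transcription factors. These and *Dlx1* and *Dlx2* are also in the list of the labelled cells. All 14 were tested, none was higher and 1 was lower, with a median log2 fold change of -0.25. The calls numbered 2 without WT replicate 1 and 5 without WT replicate 2. *Isl1*, a LIM-homeodomain factor of striatal and hypothalamic neurons, was counted 653 and 675 times in WT and 333 and 364 times in KO, and it fell by 0.88 on the log2 scale (SE 0.16, edgeR adjusted p = 0.0126). Without KO replicate 1 or KO replicate 2 it did not pass (adjusted p = 0.152 and 0.106, within a range of 1.42e-09 to 0.152 over the other settings). *Dlx1* and *Dlx2*, which drive the GABAergic programme, both had log2 fold changes of -0.21 (adjusted p = 0.423 and 0.557).

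SHH acts upstream of *Nkx2-1*, and the transcription factors and the receptor of its pathway were higher in KO. Of 9 pathway genes, all tested, 4 were higher and none was lower, with a median log2 fold change of 0.88. The transcription factor *Gli2* was counted 14 and 18 times in WT and 277 and 366 times in KO (log2 fold change 4.38, SE 0.27, edgeR adjusted p = 3.51e-05). *Gli3* was counted 55 and 55 times in WT and 466 and 499 times in KO (3.18, SE 0.20, adjusted p = 4.61e-05). *Gli1*, a direct target of the pathway, was counted 7 and 8 times in WT and 61 and 71 times in KO (3.17, SE 0.43, adjusted p = 0.00265).

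*Ptch1*, the receptor, rose by 0.88 on the log2 scale (SE 0.14, edgeR adjusted p = 0.00546), a call that was lost without KO replicate 1 (0.0694) or KO replicate 2 (0.0797) and that had adjusted p of 7.95e-13 to 0.0797 over the other settings. The ligand *Shh*, named after its values were seen, was counted 19 and 19 times in WT and 22 and 24 times in KO, and did not pass (log2 fold change 0.32, edgeR adjusted p = 0.735). The *Gli* genes are also known from astrocytes, all 8 of whose markers were higher in KO, and the part of these cells in the rise was not tested.

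Factors of hypothalamic regions next to the POA were the list with the most decreases. Of 14 genes, 11 were tested, none was higher and 6 were lower in KO, with a median log2 fold change of -2.14. Without KO replicate 1 or KO replicate 2 the count was 4, and without WT replicate 1 it was 7. *Nr5a1*, which defines the ventromedial hypothalamus, was counted 48 and 44 times in WT and 1 and 1 times in KO (pooled-count ratio 44.1 in favour of WT, exact 95% interval 11.9 to 369, edgeR adjusted p = 0.00204).

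*Bsx*, a homeobox gene of the arcuate nucleus, was counted 30 and 31 times in WT and 2 and 0 times in KO (29.2, exact 95% interval 7.75 to 247, edgeR adjusted p = 0.0147). *Fezf1* was counted 92 and 112 times in WT and 21 and 20 times in KO, which gave a log2 fold change of -2.25 (SE 0.32, adjusted p = 0.00369). *Six6* was counted 30 and 80 times in WT and 3 and 11 times in KO, which gave a log2 fold change of -2.85 (SE 0.65, adjusted p = 0.0341), which was lost without KO replicate 1 (0.167) and with limma-voom (0.0644), in a range of 4.31e-06 to 0.167. The call of *Bsx* was lost without KO replicate 2 (0.0562), the highest of its other settings, the lowest being 4.88e-07. The summed level of the list was 82.9 and 82.2 CPM in WT and 32.0 and 33.8 CPM in KO. *Nkx2-4* moved the same way, and whether the values of *Hmx2* and *Hmx3*, which hypothalamic cells are known to express as well, moved with this list was not tested. The choroid plexus gene *Ttr* was lower in KO as well, with the values given beside the other cell type markers.

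Pallial factors, which mark the dorsal side that the *Gsx* genes border on, were mixed. Of 9 genes tested, 1 was higher and 2 were lower, with a median log2 fold change of -0.68. *Emx2*, a factor of cortical progenitors, was higher in KO (log2 fold change 2.21, SE 0.36, edgeR adjusted p = 0.00746), a call that was lost without KO replicate 1 (0.0783) and that had adjusted p of 7.32e-06 to 0.0783 over the other settings. *Neurod6*, a factor of pallial glutamatergic neurons, fell by 1.38 on the log2 scale (SE 0.15, adjusted p = 0.000882). Without WT replicate 1 the count called was 8 and without WT replicate 2 it was 7.

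**Figure D4:**
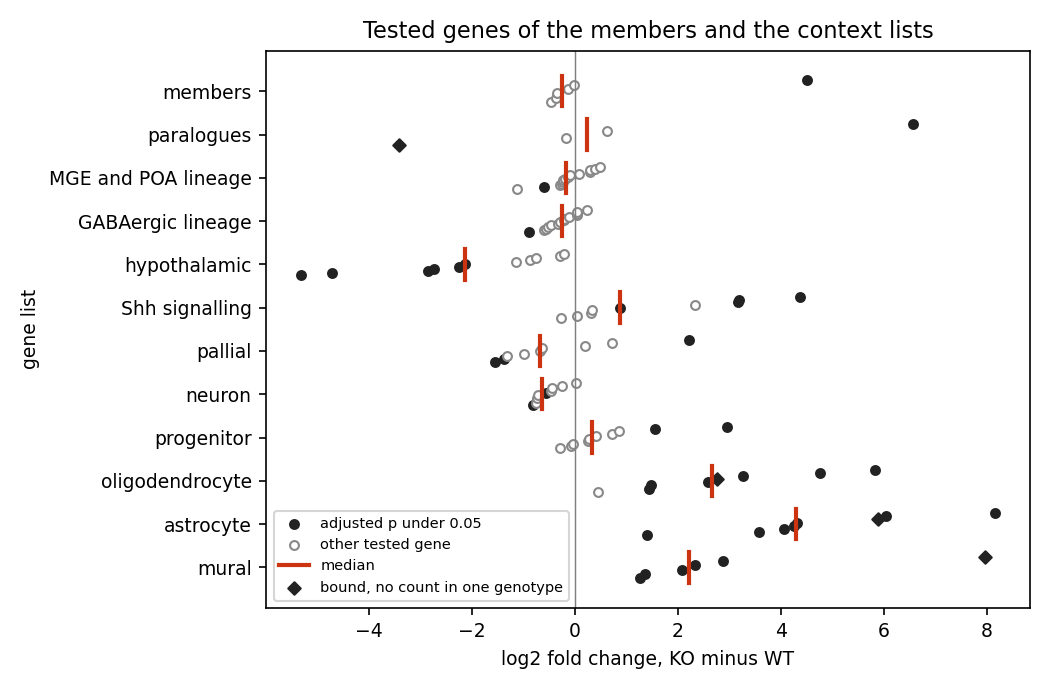
Fitted log2 fold change, KO minus WT, of every tested gene in the members and in 11 context lists, 1 row for each list (black circles adjusted p under 0.05, open circles the rest, diamonds the bounds of genes with no count in 1 genotype, red bars the medians with those genes at their bound). Hypothalamic factors sit left of 0, while oligodendrocyte, astrocyte and mural markers sit right of it, as does *Nkx6-2* among the members.

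Most markers of oligodendrocytes, which are known to express *Nkx6-2*, were higher in KO, as were all astrocyte and mural markers listed. No neuron or endothelial marker was called higher. All 8 oligodendrocyte markers were tested and 7 were higher in KO, with a median log2 fold change of 2.93, or 2.67 with *Opalin* at its bound, and the summed level was 130 and 154 CPM in WT and 580 and 560 CPM in KO. *Mobp* was counted 7 and 7 times in WT and 376 and 399 times in KO, *Mag* had 8 and 25 against 367 and 482, and *Opalin* had 0 and 0 against 13 and 27, at least 6.78-fold higher against a floor of 3 counts per library. *Opalin* did not pass without KO replicate 2 (edgeR adjusted p = 0.0692, the lowest of its other settings being 1.54e-05). *Mog*, named after its values were seen as the 1 marker that did not pass, was counted 123 and 155 times in WT and 205 and 156 times in KO (edgeR adjusted p = 0.314). *Mbp*, which encodes a main protein of myelin and was also named after its values were seen, was counted 353 and 595 times in WT and 1219 and 1268 times in KO, so WT was not at 0 for it. The part of oligodendrocytes in the rise of *Nkx6-2* was not tested.

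Oligodendrocyte precursor genes were high in both genotypes. Of 5 tested, 1 was higher in KO, *Olig2* (log2 fold change 0.63, SE 0.14, edgeR adjusted p = 0.0298), with a median of 0.46 and a summed level of 1283 and 1339 CPM in WT and 1631 and 1707 CPM in KO. The calls numbered 3 without WT replicate 1 and 4 without WT replicate 2. Without KO replicate 1 or KO replicate 2 *Olig2* did not pass (adjusted p = 0.320 and 0.287, the lowest of its other settings being 0.000169). *Pdgfra*, the defining gene of the precursors, was counted 5907 and 7341 times in WT and 7162 and 7522 times in KO and did not pass (log2 fold change 0.21, adjusted p = 0.394). In such bulk samples, fewer cells of a type and less RNA per cell cannot be told apart.

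**Figure D5:**
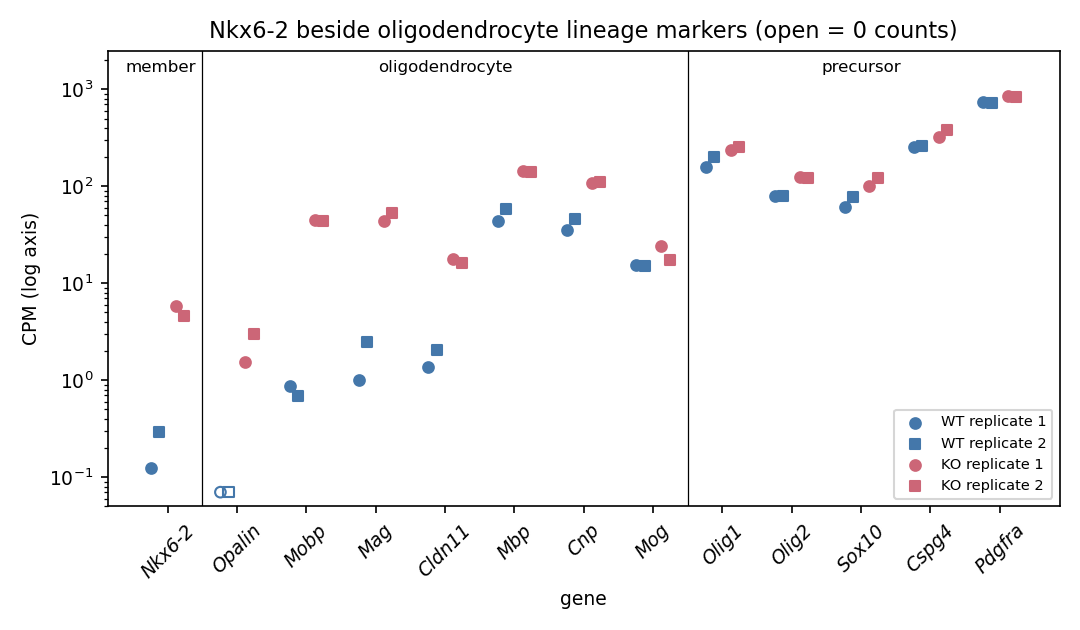
CPM on a log axis of *Nkx6-2*, 7 oligodendrocyte markers and 5 precursor markers in the 4 libraries (blue WT, red KO, open symbols 0 counts). The myelin genes *Opalin*, *Mobp* and *Mag* are low in WT and higher in KO as *Nkx6-2* is, while *Pdgfra* is high throughout.

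Other cell types moved in the same comparison. All 8 astrocyte markers were higher in KO (median log2 fold change 4.29), with summed levels of 171 and 155 CPM in WT and 3209 and 3055 CPM in KO, and *Gfap* was at 0 in both WT libraries. All 6 mural cell markers were higher (median 2.21), with 57.7 and 63.5 CPM in WT and 360 and 356 CPM in KO, and *Acta2* was at 0 in both WT libraries. Of 10 progenitor markers, 7 had log2 fold changes above 0 and 3 below it, *Sox2* (-0.29), *Mki67* (-0.04) and *Top2a* (-0.07). *Mki67* and *Top2a* were named after their values were seen. Only 2 of the 10 were called higher, *Hes1* and *Slc1a3* (log2 fold change of *Slc1a3* 2.95, edgeR adjusted p = 1.21e-05), and the median was 0.34. That count was 4 without WT replicate 1, 7 without WT replicate 2 and 1 without KO replicate 2.

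Of 10 neuron markers, none was higher and 3 were lower, with a median of -0.65 and summed levels of 6386 and 5770 CPM in WT and 4335 and 4267 CPM in KO. The largest fall was that of *Elavl4*, with a log2 fold change of -0.81 (SE 0.17, edgeR adjusted p = 0.0258). No neuron marker passed without KO replicate 1 or without KO replicate 2, and 6 passed without WT replicate 1 or without WT replicate 2. The part of this shift in the values of *Hmx2*, *Nkx2-1* and *Gsx1*, whose fold changes of -0.36, -0.37 and -0.46 lie on the same side as 9 of the 10 neuron markers, was not tested. Of 6 microglial genes, 5 were tested and 1 was higher, of 6 endothelial genes 5 were tested and none was called, and of 5 choroid plexus genes 3 were tested and 1 was lower. The gene that fell was *Ttr*, a defining marker of choroid plexus epithelium, counted 329 and 564 times in WT and 8 and 10 times in KO (log2 fold change -5.53, SE 0.30, edgeR adjusted p = 1.77e-05). With a library left out, calls numbered 0 to 3 for microglial, 0 to 2 for endothelial and 1 to 2 for choroid plexus genes.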

How the data were processed

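RNA was sequenced from 2 WT and 2 KO libraries of sorted cells. The authors deposited raw read counts for each Ensembl gene and library. The submitters' processing notes name CASAVA 1.8.2, STAR 2.5.2a, featureCounts 1.5.0-p1 and the mm10/GRCm38 build, while the annotation release and the strand setting were not given in the sources used here. Symbols, positions and exon lengths came from GENCODE M21, which matched 55480 of 55573 identifiers. Genotypes were taken from the labels.

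Counts were filtered with edgeR's expression filter, scaled by TMM factors and fitted by genotype alone with edgeR 4.0.16 (quasi-likelihood test) under R 4.3.3, with limma 3.58.1. A gene near 0 counts in 1 genotype could pass this filter through the other genotype only. Benjamini-Hochberg adjustment ran over all 16832 genes that passed. An exact permutation test of 2 against 2 libraries cannot go below p = 0.333 and was not used. Exact intervals of count ratios and the floor of 3 counts cover counting error only. Alternatives were DESeq2 1.42.0, limma-voom, other scalings and filters, the replicate number as a block, a length and GC correction, each library left out and, chosen after the data were seen, removal of mitochondrial genes. The scripts were tested on simulated data.

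The members and gene lists were chosen with earlier results of these data known, so a list's count is not independent evidence. Genes named were the 7 members, *Dnmt1*, from each list up to 3 called genes with the largest change in each direction and the 2 with the highest level, the whole list of the labelled cells, and the 2 homeobox genes most like each member. Not all genes the rule allows are printed, and some are not reported here.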

Additional observations from a re-analysis of the deposited data

How the results depend on the processing

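The call of *Nkx6-2* held in every setting that tested it. With at least 10 counts in every library *Nkx6-2* was not tested, so 0 members were called (0 higher). Members called in either direction numbered 2 with the length and GC correction (1 lower, *Hmx2*), 3 with that correction and the replicate block (2 lower, *Hmx2* and *Nkx2-1*), and 1 to 2 with a library left out (0 to 1 lower). Over all genes, 1329 were called (1233 higher, 96 lower). The total was 2363 without a filter, 883 with at least 10 counts in every library, 2244 with the replicate block, 2946 with the length and GC correction, 3710 with both, and 726 to 4299 with a library left out. Higher genes numbered 1863 with the correction, 2161 with both, and 706 to 2514 with a library left out. Lower genes numbered 252 with DESeq2, 573 without a filter, 52 with at least 10 counts, 619 with the block, 1083 with the correction, 1549 with both, and 20 to 2144 with a library left out. The share of calls that were higher was 92.8%, against 82.0% with DESeq2, 75.8% without a filter, 72.4% with the block, 63.2% with the correction and 58.2% with both, and it was 50.1% without WT replicate 2, 67.8% without WT replicate 1 and 96.8% to 97.2% without a KO library. The cause of these shifts was not tested.

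Directions turned only for values near 0: *Hmx3* was 0.077 with library size only, 0.0091 with at least 10 counts and -0.23 to 0.15 with a library left out. *Gsx2* was -0.59 to 0.21 and *Dlx2* -0.49 to 0.030 with a library left out. *Lhx6* was -0.0044 with the correction, -0.0067 with the block added, and -0.10 to 0.24 with a library left out. Same-numbered libraries shared a correlation of 0.159 over 16832 genes, but the labels give no shared litter or day, so the block is given here only. With 2 libraries a genotype, leaving one out assumes that the lone library varies like the others, and at counts near 3, as for *Dbx1* and *Nkx6-2* in WT, depth limits what can be read.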
